A study of Mus musculus with 4 samples.

Results

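A set of 10 genes of the skeletal muscle programme were followed in mouse inner ear organoids. They were taken by symbol from the 27998 genes of the deposited matrices, and all 10 were found. Pax7, Myf5, Myod1, Myog, Msc, Cdh15, Vgll2 and Mef2c carry the names in current use, and Tmem8c and Gm7325 are older names of Mymk (myomaker) and Mymx (myomerger). The organoids are three-dimensional cultures grown from mouse embryonic stem cells towards otic tissue, and they also contain cells of other types, among them skeletal muscle. Wild-type (WT) organoids came from the line R1/E and knockout (KO) organoids from R1/E-Tmprss3KO-GFPKI, both derived from the 129X1x129S1 strain, and each was sampled on day 25 and day 35. Every group was 1 droplet-based single-cell library, so each comparison below is between 2 libraries, no difference has a replicate check, and no test was made. Intervals are exact, at the 95% level, and cover counting error only. Levels are UMIs (unique transcript molecules counted) per 1000000 UMIs of the same cells, or CPM. Where values of all libraries are listed, the order is WT day 25, KO day 25, WT day 35 and KO day 35.

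Skeletal muscle is built in steps. Pax7 marks muscle progenitors and satellite cells, and the basic helix-loop-helix factors Myf5 and Myod1 commit cells to the lineage. Myog, a factor of the same family, and the MADS-box factor Mef2c drive differentiation, while Msc (musculin) is a related repressor and Vgll2 a cofactor of TEAD factors. Cdh15 (M-cadherin) holds myogenic cells together, and the membrane proteins encoded by Tmem8c and Gm7325 are needed for myoblasts to fuse into multinucleated myotubes.

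Promoters were available from RefSeq (GRCm38.p6) for 6 of the 10 genes and are shown for the 4 whose levels carry the results below: the progenitor pair Pax7 and Myf5, the myoblast gene Myog, and Vgll2, whose whole-library level differed most between days. Each sequence runs 5′ to 3′ from 250 bases before to 50 bases after the annotated start. Capitals mark matches to the E-box CANNTG, the core that basic helix-loop-helix factors recognise, and to the MEF3 sequence TCAGGTT, bound by SIX-family factors, both searched on either strand. The windows are chr4:139832919-139833218 (minus strand) for Pax7, chr10:107486085-107486384 (minus strand) for Myf5, chr1:134289754-134290053 (plus strand) for Myog and chr10:52022252-52022551 (plus strand) for Vgll2.
Pax7: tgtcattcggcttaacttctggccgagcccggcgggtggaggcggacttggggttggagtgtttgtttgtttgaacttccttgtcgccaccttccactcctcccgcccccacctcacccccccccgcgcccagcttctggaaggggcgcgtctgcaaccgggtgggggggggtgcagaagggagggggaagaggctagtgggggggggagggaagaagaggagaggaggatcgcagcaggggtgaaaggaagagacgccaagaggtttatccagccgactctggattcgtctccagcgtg
Myf5: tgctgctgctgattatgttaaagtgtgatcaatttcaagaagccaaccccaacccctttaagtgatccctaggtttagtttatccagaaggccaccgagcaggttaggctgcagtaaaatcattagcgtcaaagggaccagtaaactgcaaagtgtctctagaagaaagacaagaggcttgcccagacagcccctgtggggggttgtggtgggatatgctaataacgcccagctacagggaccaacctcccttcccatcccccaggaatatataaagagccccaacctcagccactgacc
Myog: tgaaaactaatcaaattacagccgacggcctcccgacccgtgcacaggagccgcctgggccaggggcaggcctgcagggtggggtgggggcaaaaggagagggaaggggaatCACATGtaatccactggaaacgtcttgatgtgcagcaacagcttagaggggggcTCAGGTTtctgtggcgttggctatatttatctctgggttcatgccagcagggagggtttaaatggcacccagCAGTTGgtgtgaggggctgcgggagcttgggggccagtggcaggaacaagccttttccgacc
Vgll2: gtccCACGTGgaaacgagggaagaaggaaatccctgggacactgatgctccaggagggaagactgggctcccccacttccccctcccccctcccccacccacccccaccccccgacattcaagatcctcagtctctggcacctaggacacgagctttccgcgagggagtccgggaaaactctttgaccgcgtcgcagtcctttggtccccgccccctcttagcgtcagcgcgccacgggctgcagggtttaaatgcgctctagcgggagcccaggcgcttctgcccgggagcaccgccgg
Myog held 2 E-boxes, at positions -138 to -133 and -12 to -7 from the start, and 1 MEF3 match at -84 to -78. Vgll2 held 1 E-box at -246 to -241, and the windows of Pax7 and Myf5 held neither motif. Among all 32841 promoters of this length 72.3% held at least 1 E-box, 39.6% at least 2, and 4.07% a MEF3 match, so an E-box in such a window is common. The Cdh15 window held 4 E-boxes, and 6.49% of promoters held at least 4. The Mef2c window held 3 E-boxes and a MEF3 match at -248 to -242, which overlapped the E-box at -245 to -240; no matches overlapped in the other windows.

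After barcodes with fewer than 500 genes or more than 10% mitochondrially encoded UMIs were removed, 9768, 11190, 8166 and 6729 cells were kept, with 30887121 to 84439223 UMIs per library and a median of 3089 (WT day 35) to 6371 (KO day 25) UMIs per cell. The day 35 libraries, WT above all, were therefore shallower. The kept cells were 98.0%, 99.0%, 88.3% and 95.1% of barcodes, and their median mitochondrial share was 2.69%, 2.16%, 4.81% and 3.42%. The stricter limit of 5% used below thus lies close to the median of WT day 35. Tmprss3, the targeted gene, gave 18, 7, 8 and 5 UMIs, too few to check the labels closely, and was not at 0 in KO. Pairs of libraries shared 66 to 136 barcodes (0.981% to 1.56% of the smaller library). A group of cells was nearly all from 1 library: a pluripotent-like cluster (Dppa5a, Pou5f1, Utf1) of 334 cells held 319 cells of KO day 35, which carried 13.6% of that library's UMIs. Whole-library values of KO day 35 are therefore also given without it where that ends a call.

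At least 1 UMI of the 10 genes was found in 5501, 7249, 2827 and 1667 kept cells. Myog (1:134289989-134292548, GRCm38) was at 376, 509, 363 and 155 CPM over all kept cells. Mef2c (13:83504034-83667080) was at 89.4, 76.8, 80.3 and 28.6, and Myod1 (7:46376474-46379099) at 57.1, 65.9, 22.5 and 12 CPM. KO day 35 was the lowest library for all 3. Of the progenitor factors, Pax7 (4:139737062-139833528) was at 8.87, 11, 7.90 and 2.61 CPM, and Myf5 (10:107482908-107486134) at 16.8, 24.2, 36.6 and 12.1. Myf5 stood apart from the other 9 in having its highest level in WT day 35. Vgll2 (10:52022502-52028471) had the widest range, at 34.4, 56.8, 7.64 and 2.06 CPM. The repressor Msc (1:14753346-14755992) was at 27.9, 30.9, 17.0 and 14.5 and the cadherin Cdh15 (8:122847966-122867397) at 41.1, 40.4, 19 and 9.19. For the fusion pair, Tmem8c (2:27061636-27072179) was at 71.4, 67.9, 55.0 and 22.4, and Gm7325 (17:45600971-45602102) at 64.3, 86.5, 45.6 and 26.4 CPM. In the annotation Msc overlaps the antisense gene Gm9947 and Cdh15 the same-strand gene Gm20388, and how reads in those overlaps were counted is not given in the sources used here.

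**Figure D1:**
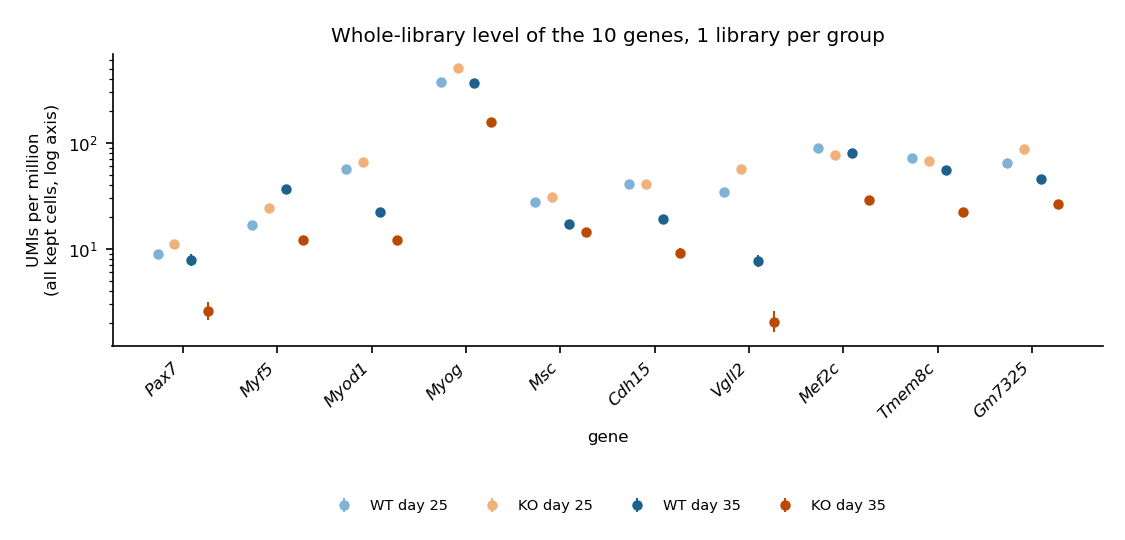
Level of each of the 10 genes (x axis) in CPM over all kept cells (y axis, log scale), 1 point per library with its exact 95% Poisson interval. KO day 35 is the lowest point for every gene, and Vgll2 spreads furthest, from 56.8 in KO day 25 to 2.06 in KO day 35.

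To place these levels in cells, the kept cells were clustered on genes that did not include the 10, and clusters were named from markers that did not include them either. Of the 25 clusters, cluster 13 was skeletal progenitor-like (Chodl, Fgfr4, Heyl among its 50 leading genes), cluster 12 myoblast-like (Chrna1, Rbm24, Dok7) and cluster 11 myotube-like (Acta1, Mylpf, Tnnc2, Ckm, Ttn). The 3 progenitor markers of cluster 13 were the fewest that give a name. Markers of other stages were among the leading genes as well. Cluster 13 had the myoblast marker Rapsn, and cluster 12 the progenitor marker Megf10 and the myotube markers Ckm and Atp2a1. Cluster 11 had the progenitor marker Des and the myoblast markers Tnnt2 and Myl4. Cluster 16 was cycling (Ube2c, Cdk1, Top2a) and had Fgfr4 among its leading genes. Skeletal muscle-like cells, the sum of clusters 11 to 13, made up 16.2%, 17.8%, 19.3% and 7.21% of kept cells. A second clustering of clusters 11, 12, 13 and 16 gave 4 stages. Progenitor-like cells numbered 596, 751, 699 and 220, myoblast-like cells 370, 601, 199 and 59, myotube-like cells 495, 416, 549 and 167, and cycling skeletal cells 534, 816, 192 and 64. A further 132, 227, 135 and 31 cells lay in 2 subclusters in which 73.8% and 60% of cells had high doublet scores, and these were set aside after the data had been seen. Progenitor-like cells came from 2 subclusters that split by day: 1 held 592 and 742 cells of the day 25 libraries and 19 and 15 of the day 35 libraries, the other 4, 9, 680 and 205. Myotube-like cells came from 2 subclusters as well: the larger, led by Sln and Csrp3, held 337, 297, 535 and 162 cells, and the smaller, led by Mybph and Myh3, 158, 119, 14 and 5, so nearly all of the smaller was from day 25.

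Along the stages other than cycling skeletal cells the 10 genes separated into 3 sets by where their level was highest, with libraries weighted equally: 3 in progenitor-like, 6 in myoblast-like and 1 in myotube-like cells. Msc, placed in the first set, was higher still in cycling skeletal cells, with a mean of 80.5 CPM against 75.8 in progenitor-like cells. Of all 12956 genes measured in the stages, 41.6% were highest in progenitor-like, 29.7% in myoblast-like and 28.7% in myotube-like cells. Pax7 was at 72.2, 73.8, 79.6 and 54.5 CPM in progenitor-like cells, 3.00, 6.19, 1.57 and 13.8 in myoblast-like cells and 1.81, 4.27, 1.88 and 3.33 in myotube-like cells. The progenitor-like range did not overlap the others, and the myoblast-like value of 13.8 rested on 4 UMIs in 59 cells. Myf5 was likewise highest in progenitor-like cells, at 116, 152, 310 and 270 CPM, against 13.8 to 29.7 in myoblast-like and 25.8 to 52.9 in myotube-like cells. In cycling skeletal cells Myf5 was at 89.6, 123, 286 and 269 and Pax7 at 44.4 to 58.9 CPM. For both genes these levels were below the progenitor-like ones beyond counting error at day 25. The intervals of the 2 stages overlapped at day 35. Myf5 was thus lowest in the middle stage: the myotube-like level was above the myoblast-like one in all 4 libraries (on 4 myoblast-like UMIs in KO day 35), with intervals that did not overlap in the day 25 libraries (10.7 to 20.4 against 22.7 to 31.0 in WT, 14.6 to 23.3 against 29.7 to 40.1 in KO).

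Msc, which encodes a repressor of the same protein family, was found in the progenitor-like and cycling cells of day 25, at 146 and 107 CPM in progenitor-like cells of WT and KO and 168 and 97.6 in cycling skeletal cells. At day 35 the progenitor-like level was 23.1 in WT and 27.8 in KO. In myoblast-like cells it was 9.38, 8.16, 1.57 and 0 and in myotube-like cells 2.13, 5.24, 0.939 and 0 CPM, so that neither later stage reached the lowest progenitor-like value.

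Myod1, which commits cells, and Myog, which drives differentiation, were highest in myoblast-like cells in every library. Myod1 was at 355 CPM there in both day 25 libraries and at 193 and 220 at day 35, against 120, 151, 68.3 and 83.4 in progenitor-like and 199, 195, 89.8 and 165 in myotube-like cells. Myog was at 143, 194, 169 and 228 CPM in progenitor-like cells, 3971, 4915, 6484 and 7469 in myoblast-like cells, and 1529, 1848, 1530 and 2196 in myotube-like cells. From progenitor- to myoblast-like cells it was 25.4 to 38.3 times as high, against 33.4 to 49.5 times for Tmem8c and 52.4 to 75.6 times for Gm7325. No 2 stages of Myog overlapped. At an equal depth of 2000 UMIs per cell, 95.9%, 98.2%, 96.8% and 100% of myoblast-like cells had a Myog UMI. Vgll2, the TEAD cofactor, had the same order within each library, at 316, 473, 113 and 93.0 CPM in myoblast-like cells, 146, 137, 32.2 and 31.6 in myotube-like cells and 27.5, 68.7, 7.19 and 4.27 in progenitor-like cells.

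Mef2c, which acts with myogenic factors on muscle genes, was the 1 gene whose level was highest in myotube-like cells in all 4 libraries, at 645, 547, 492 and 445 CPM. In myoblast-like cells it was at 260, 218, 261 and 234, and in progenitor-like cells at 19.6, 27.8, 35.4 and 32.1. The ranges of the 3 stages did not overlap. At day 25 Cdh15 varied least along the stages. It was at 138, 151, 113 and 150 CPM in progenitor-like, 188, 165, 124 and 103 in myoblast-like and 137, 91.5, 41.3 and 40.0 in myotube-like cells. Its highest stage was myoblast-like in 3 libraries and progenitor-like in KO day 35, where the intervals of both stages overlapped (69.7 to 148 and 126 to 177). Without the cells of high doublet score, or at the higher resolution of 1 in the second clustering, its highest stage was progenitor-like. At that resolution subclusters of 558 and 354 cells, with Myf5 among their leading genes, were unnamed and lay outside the stages.

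Both fusion genes were low in progenitor-like cells and high from the myoblast-like stage on. Tmem8c was at 11.1, 9.81, 11.8 and 17.1 CPM in progenitor-like cells, 439, 485, 474 and 572 in myoblast-like cells and 526, 498, 353 and 475 in myotube-like cells. Its order between the 2 later stages changed with the day: the myotube-like level was 1.20 times the myoblast-like one in WT day 25 (1.12 to 1.28) and within counting error of it in KO day 25 (1.03, 0.968 to 1.09), and the myoblast-like level was the higher at day 35. Tmem8c was at 411 CPM in the larger and 688 in the smaller myotube-like subcluster, the one mostly of day 25, and the part of that subcluster in this order was not tested. The stage that came out highest overall became myotube-like when UMIs of all libraries were summed or cells of high doublet score were left out. Gm7325 was at 10.8, 15.2, 10.8 and 11.8 in progenitor-like, 598, 802, 565 and 889 in myoblast-like and 323, 378, 229 and 316 CPM in myotube-like cells, so its myoblast-like level was above the myotube-like one in each library. In cycling skeletal cells Tmem8c was at 42.4, 36.8, 25.7 and 27.8 and Gm7325 at 70.1, 89.2, 21.2 and 44.4 CPM.

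**Figure D2:**
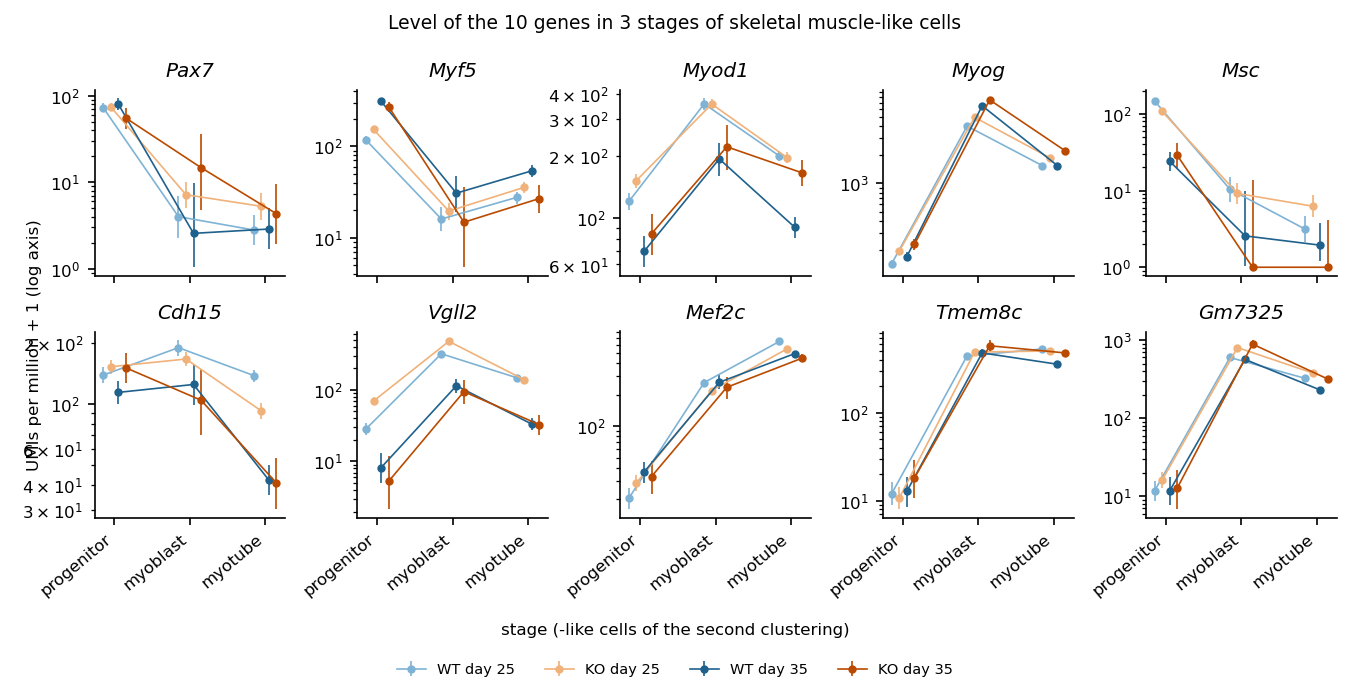
Level of each gene (CPM + 1, log axis) in progenitor-like, myoblast-like and myotube-like cells, 1 line per library with exact 95% Poisson intervals. In all 4 libraries Pax7, Myf5 and Msc are highest in progenitor-like, Myod1, Myog, Vgll2 and Gm7325 in myoblast-like and Mef2c in myotube-like cells.

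The question of the knockout was asked first over all kept cells. A gene was called where its ratio of CPM was at least 2-fold in size and its interval did not hold 0 on the log2 scale, among genes with at least 20 UMIs in the 2 libraries. At day 25, 0 of the 10 genes were called between KO and WT, against 7.24% of 16984 genes, and their log2 ratios ran from -0.22 (Mef2c) to 0.72 (Vgll2), with a median of 0.26 against -0.04 over all genes. All but Cdh15 (0.984-fold, 0.937 to 1.03) differed beyond counting error but under 2-fold. Vgll2 (1.65-fold, 1.57 to 1.73), Myf5 (1.44-fold, 1.34 to 1.55), Myog (1.35-fold, 1.33 to 1.37), Gm7325 (1.34-fold), Pax7 (1.25-fold), Myod1 (1.15-fold) and Msc (1.11-fold) were higher in the KO library, and Mef2c (0.860-fold, 0.83 to 0.890) and Tmem8c (0.952-fold) lower.

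At day 35, 7 of the 10 genes were called lower in KO than in WT and 0 higher, against 2.88% of 15843 genes lower and 9.76% higher. The median log2 ratio of the 10 was -1.26, against 0.23 over all genes. Vgll2 had the lowest ratio at -1.89 (-2.28 to -1.52), followed by Pax7 (-1.60) and Myf5 (-1.60), Mef2c (-1.49), Tmem8c (-1.30), Myog (-1.23) and Cdh15 (-1.05). Myod1 (-0.90), Gm7325 (-0.79) and Msc (-0.22) did not reach 2-fold. With median-ratio scaling Myod1 (-1.13) and Gm7325 (-1.02) did, as Gm7325 did with no filter on barcodes (-1.01). Without the pluripotent-like cluster the ratio of Cdh15 was -0.92 and 6 genes were called. With stricter limits on cells (at least 1000 genes and at most 5% mitochondrial UMIs) 4 were called, Pax7 (-0.67), Myog (-0.48) and Cdh15 (-0.28) no longer being among them.

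The share of muscle-like cells moved with these levels. At day 35 the KO share of skeletal muscle-like cells was 0.374 times that of WT (0.337 to 0.414), and the stages were lower to a like degree: 0.382 times for progenitor-like, 0.36 for myoblast-like, 0.369 for myotube-like and 0.405 for cycling skeletal cells. Clustering each library alone gave 0.588 for the whole class. Within skeletal muscle-like cells, 0 of the 10 genes were called between KO and WT at day 35, against 4.08% of 10688 genes, and the log2 ratios ran from -0.29 (Mef2c) to 0.61 (Myod1), with a median of 0.31 against 0.13 over all genes. The 7 genes lower in the whole KO library thus had levels per muscle-like cell UMI within 2-fold of WT. Pax7 was at 26.1 CPM in WT and 22.6 in KO, Myf5 at 127 and 117, Myog at 1553 and 1992, and Vgll2 at 31.3 and 26.0. How far the share sets the whole-library ratio was not tested. At day 25 the share in KO was 1.10 times that of WT (1.03 to 1.17), but 0.882 times (0.786 to 0.989) with cells taken by myotube markers in place of clusters. Within the class 0 of the 10 genes were called (3.41% of 12874 genes), with ratios from -0.47 (Mef2c) to 0.51 (Vgll2). The make-up of the class differed at day 25, with 1.42 times as many myoblast-like (1.24 to 1.62) and 0.734 times as many myotube-like cells (0.642 to 0.837) as a share of the KO library.

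**Figure D3:**
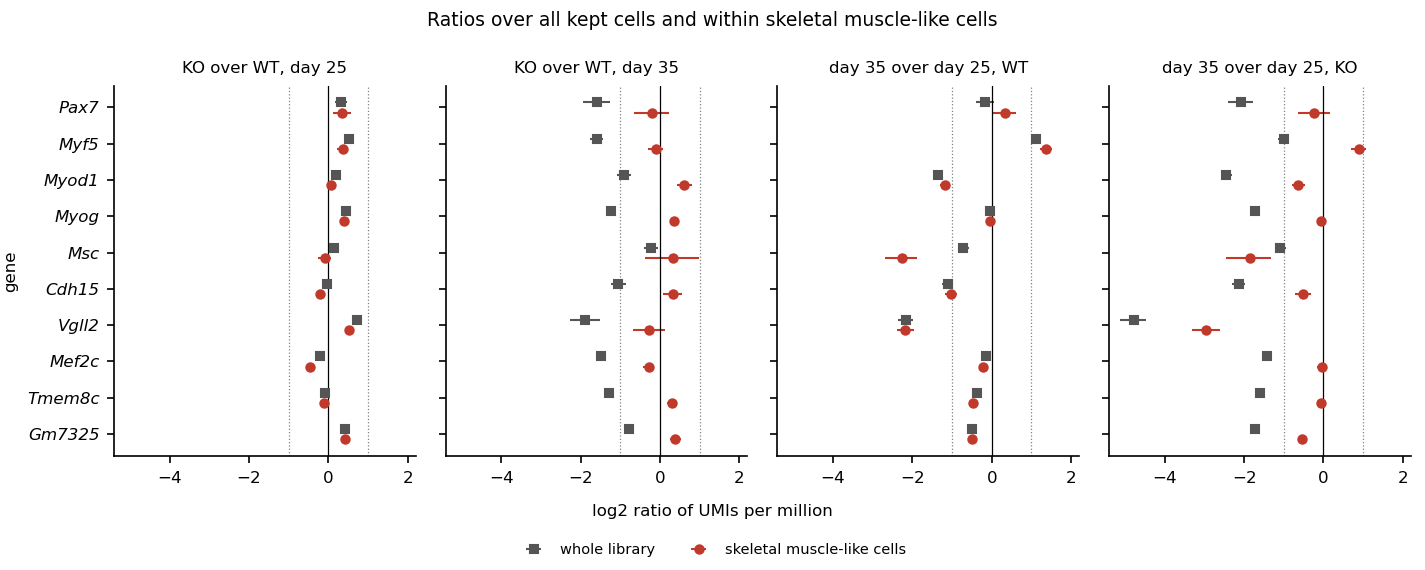
Log2 ratio of CPM (x axis) for each gene (y axis) in the 4 comparisons, over all kept cells (grey squares) and within skeletal muscle-like cells (red circles), with exact 95% intervals and dotted lines at 2-fold. In KO over WT at day 35 the grey squares lie at -0.22 to -1.89 and the red circles at -0.29 to 0.61.

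Within single stages few of the 10 genes were called between genotypes. The clearest was Vgll2 in progenitor-like cells of day 25, at 27.5 CPM in WT (22.2 to 33.6, 94 UMIs in 596 cells) and 68.7 in KO (61.0 to 77.0, 294 UMIs in 751 cells), a log2 ratio of 1.32 (0.98 to 1.67). It was the only one of the 10 called there, where 1.26% of 10271 genes were called higher, and its ratio stayed between 1.09 and 1.55 under the 5 alternatives tried. At 2000 UMIs per cell, 4.19% of WT and 10.5% of KO progenitor-like cells had a Vgll2 UMI. In cycling skeletal cells of the same day Vgll2 was at 78.1 in WT and 154 in KO (log2 ratio 0.98), in myoblast-like cells at 316 and 473 (0.58) and in myotube-like cells at 146 and 137 (-0.09). The difference therefore narrowed along the stages in these libraries. Outside the muscle clusters, where muscle transcripts serve as a measure of background, Vgll2 was at 3.74 in WT and 7.40 in KO day 25. Msc ran the other way in cycling skeletal cells of day 25, at 168 CPM in WT and 97.6 in KO (log2 ratio -0.78).

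In myotube-like cells of day 25, Pax7 (11 UMIs in WT, 22 in KO) and Msc (13 and 27) were called higher in KO, against 1.6% of 10849 genes, but both calls were lost with the set-aside subclusters put back (0.79 and 0.65) and the counts are small. The call of Pax7 was also lost without cells of high doublet score (0.84), and that of Msc with the first clustering as stages (0.93) and in the larger myotube-like subcluster alone (0.76). In myotube-like cells of day 35, Myf5 was called lower in KO (52.9 in WT, 25.8 in KO, log2 ratio -1.04, against 1.43% of 8411 genes lower), and the call was lost without cells of high doublet score (-0.83), with the set-aside subclusters put back (-0.86) and in the larger myotube-like subcluster alone (-0.93). Myod1 there was at 89.8 in WT and 165 in KO, a log2 ratio of 0.88 (0.61 to 1.14) that was not called. Cycling skeletal cells of day 35 had 30 Msc UMIs in WT and 4 in KO (log2 ratio -2.03, -3.99 to -0.52), called lower where 2.81% of 5223 genes were. In myoblast-like cells 0 of the 10 genes were called on either day (2.54% of 9464 genes at day 25, 4.51% of 4519 at day 35, where 8 of the 10 had enough UMIs), as in cycling skeletal cells of day 25 (3.34% of 10965) and progenitor-like cells of day 35 (5.63% of 8027, 9 of the 10).

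Between days 9 of the 10 genes were lower at day 35 over the whole library in both lines, and Myf5 was higher in WT and lower in KO. For Pax7 in WT the intervals of the 2 days overlapped (8.20 to 9.58 and 6.94 to 8.96 CPM). In WT, 1 gene was called higher at day 35 and 3 lower, against 7.72% and 14% of 16397 genes: Myf5 was higher (log2 ratio 1.12, 1.003 to 1.24), and Vgll2 (-2.17), Myod1 (-1.35) and Cdh15 (-1.11) were lower. Myog, at 376 and 363 CPM, had a ratio of -0.05. With the stricter limits on cells Myf5 was at 0.80, Myog at -1.26, and 7 genes were called lower. In KO all 10 genes were called lower at day 35, against 7.71% of 16830 genes, from -1.01 (Myf5) to -4.78 (Vgll2, 56.8 to 2.06 CPM). Without the pluripotent-like cluster Myf5 was at -0.81 and Msc at -0.91, and 8 were called. Myf5 was also short of 2-fold with the stricter limits on cells (-0.93) and, narrowly, with no filter on barcodes. The share of skeletal muscle-like cells was 1.19 times as large at day 35 as at day 25 in WT (1.11 to 1.28) and 0.406 times in KO (0.367 to 0.448). The WT ratio depended on how the class was drawn and turned below 1 under 3 alternatives.

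Within skeletal muscle-like cells the 2 lines were closer to each other. In WT, Myf5 was called higher at day 35 (49.2 to 127 CPM, log2 ratio 1.36) and Msc (-2.27), Vgll2 (-2.18), Myod1 (-1.18) and Cdh15 (-1.03) lower, against 6.25% of 12261 genes higher and 8.28% lower. In KO, Vgll2 (-2.96) and Msc (-1.86) were called lower, against 4.22% of 12073 genes, and Myf5 (0.89), Myod1 (-0.63) and Cdh15 (-0.51) had the same sign as in WT without reaching 2-fold. The calls of Myod1 (-0.98) and Cdh15 (-0.82) in WT were lost without cells of high doublet score. With cells taken by myotube markers in place of clusters, Myf5 (0.71) and Msc (-0.11) in WT and Msc (-0.98) in KO were not called, and Myf5 in KO was below 0 (-0.17). Of the fusion and differentiation genes 0 were called in either line: Myog had ratios of -0.03 in WT and -0.07 in KO, Tmem8c -0.47 and -0.06, Gm7325 -0.50 and -0.53, and Mef2c -0.22 and -0.04. Pax7 was not called either (0.32 and -0.23).

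Stage by stage, Vgll2 was lower at day 35 in each of the 4 stages in both lines. In progenitor-like cells it was at 27.5 and 7.19 CPM at days 25 and 35 in WT (log2 ratio -1.93) and at 68.7 and 4.27 in KO (-4.01, on 4 UMIs at day 35). In myoblast-like cells the ratio was -1.49 in WT and -2.34 in KO, in myotube-like cells -2.18 and -2.12, and in cycling skeletal cells -2.23 and -3.47. All of these were called, and those of progenitor-, myoblast- and myotube-like cells were called under each of the 5 alternatives as well. In the larger myotube-like subcluster alone the Vgll2 ratio was -1.45 in WT and -1.19 in KO; the smaller one, mostly of day 25, had Vgll2 at 269 CPM against 61.3 in the larger. The share of all genes called lower was 6.89% of 9570 (WT) and 3.83% of 9588 (KO) in progenitor-like, 4.71% of 7856 and 1.46% of 8576 in myoblast-like, 10.3% of 10386 and 5.14% of 9591 in myotube-like and 5.47% of 9566 and 2.17% of 10164 in cycling skeletal cells.

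Myf5 was the 1 gene called higher at day 35 in any stage. In progenitor-like cells it was at 116 and 310 CPM at days 25 and 35 in WT (log2 ratio 1.42, 1.23 to 1.60, against 9.78% of genes called higher) and at 152 and 270 in KO (0.83, 0.62 to 1.04, not called). The KO ratio was 1.29 without cells of high doublet score and 1.13 at the higher second resolution. That resolution left subclusters of 558 and 354 cells, with Myf5 (127 and 178 CPM) among their leading genes, unnamed and outside the stage. Progenitor-like subclusters then held 8 and 95 cells of KO day 35. In cycling skeletal cells the ratio was 1.67 (1.42 to 1.92) in WT and 1.13 (0.81 to 1.43) in KO, against 10.2% and 5.47% of genes called higher. Pax7 did not follow: its progenitor-like ratios were 0.14 (-0.16 to 0.44) in WT and -0.44 (-0.89 to -0.01) in KO. At 2000 UMIs per cell the share of progenitor-like cells with a Myf5 UMI was 20.5%, 22.5%, 33.9% and 37.3%, and with a Pax7 UMI 14.3%, 13.8%, 13.6% and 11.4%. Thinning left out 118 shallower progenitor-like cells of WT day 35 and 0 of the other libraries. Msc was lower at day 35 in progenitor-like cells of both lines, with ratios of -2.66 in WT and -1.94 in KO, and in cycling skeletal cells (-1.89 and -3.13). The day 25 and day 35 progenitor-like cells lay in different subclusters, whose leading genes were Fgfr4, Myf5, Pax7 and Fitm1 for day 25 and Myf5, Chodl, C1qtnf3 and Gpx3 for day 35, so the day and the kind of progenitor cannot be told apart here.

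In myotube-like cells Cdh15 was lower at day 35, from 137 to 41.3 CPM in WT (-1.73) and from 91.5 to 40.0 in KO (-1.20). Myod1 was called lower there in WT (-1.15), a call lost without cells of high doublet score (-0.94), and was at -0.25 in KO. The smaller myotube-like subcluster, mostly of day 25, had Cdh15 at 193 CPM and Myod1 at 258, against 63.9 and 146 in the larger. In the larger alone Cdh15 was at -1.31 in WT, still called, and at -0.70 in KO, not called, and Myod1 at -0.89 in WT was not called. Myf5 was called higher there at day 35 in WT (1.10). Msc had 27 UMIs in KO myotube-like cells of day 25 (5.24 CPM) and 0 UMIs in 167 cells at day 35 (interval 0 to 3.07 CPM). With 3 counts in place of the 0 the level at day 35 was 0.476-fold that at day 25 (not on the log2 scale) and was called lower. That value depends on the 3 counts put in and is not an upper limit. That call was lost without cells of high doublet score (log2 ratio -0.89), and the larger subcluster alone held too few UMIs for one. In cycling skeletal cells Gm7325 was lower at day 35 (-1.73 in WT, -1.01 in KO) and Myod1 was called lower in WT (-1.25). The KO day 35 level of Gm7325 rested on 16 UMIs in 4 of 64 cells. A finer subcluster of 214 cycling cells, with Gm7325 at 368 CPM against 25.3 and 16.6 in the others, held 70, 129, 11 and 4 cells, and its part in these ratios was not tested. The median UMI count of these cells at day 35 was lower as well, 3193.5 in WT against 8244 at day 25 and 5357 in KO against 8115, and its part in the ratios was not tested.

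**Figure D4:**
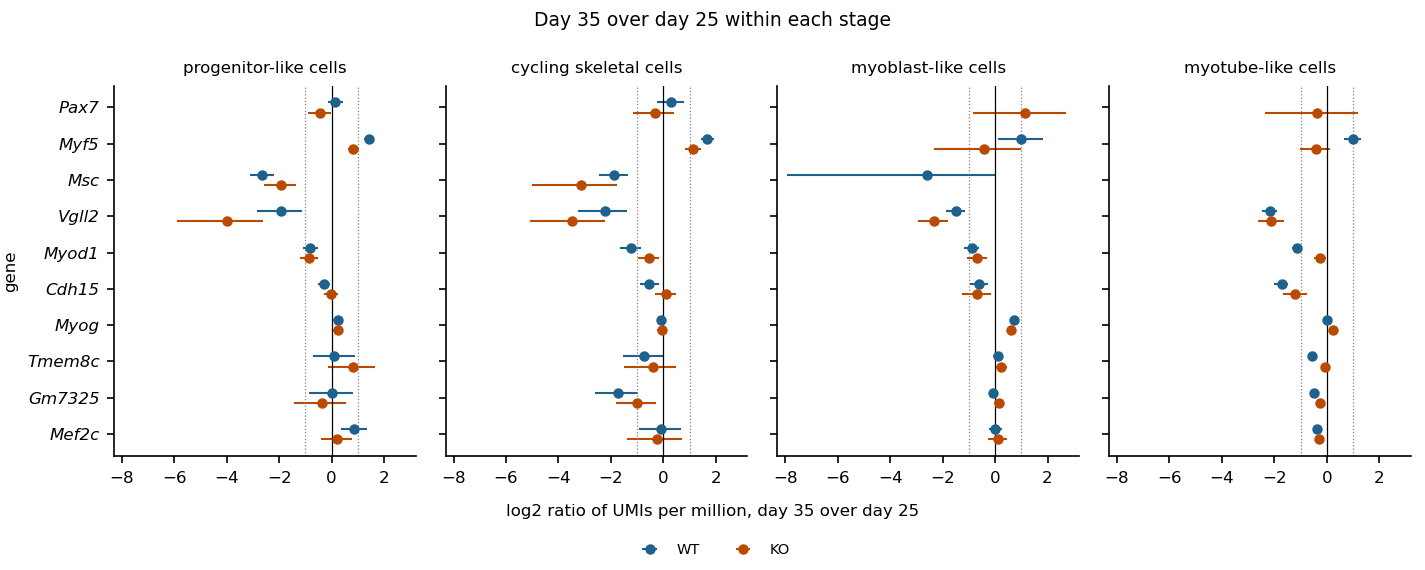
Log2 ratio of CPM, day 35 over day 25 (x axis), for each gene (y axis) within 4 stages, in WT (blue) and KO (orange) with exact 95% intervals and dotted lines at 2-fold. Genes with 0 UMIs in a library or fewer than 20 in both together are left out. Vgll2 lies left of -1 in every panel, and Myf5 lies right of 0 in both lines in progenitor-like and cycling skeletal cells.

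How the genes met in single cells was read at 2000 UMIs per cell, where each cell has the same chance of showing a transcript. These shares are descriptions of cells within 1 library. In progenitor-like cells, cells with a Myf5 UMI had a Myog UMI less often than the rest in every library: 11.5%, 14.2%, 7.11% and 11% against 19%, 19.4%, 14.1% and 17.4%. The gap was wider in cycling skeletal cells, at 12%, 10.3%, 6.45% and 0% against 30.3%, 32.0%, 30.5% and 24.4%. Myod1 went with Myog instead. Progenitor-like cells with a Myod1 UMI had a Myog UMI in 30.6%, 31.1%, 24.2% and 41.4%, against 14.0%, 14.6%, 10.2% and 11% of the rest, and cycling skeletal cells in 47.1%, 51.1%, 44.0% and 40.0% against 19.6%, 18.1%, 18.7% and 8.16%. Of the 64 cycling cells of KO day 35, 23 had a Myf5 UMI and 15 a Myod1 UMI. The finer cycling subcluster of 214 cells had Myog at 3342, Myod1 at 535 and Myf5 at 13.4 CPM. In the other cycling subclusters Myog was at 179 and 208 and Myf5 at 149 and 141. The part of this split in the cycling shares was not tested. The fusion pair met as well: of myoblast-like cells with a Tmem8c UMI, 65.1%, 79.1%, 50.5% and 77.4% had a Gm7325 UMI, against 46.1%, 49.0%, 41.5% and 32.1% of the rest. In myotube-like cells the shares were 46.9%, 44.5%, 36.8% and 53.3% against 25.2%, 27%, 16.7% and 13%. For Pax7 and Myf5, both highest in progenitor-like cells, the shares were less far apart in some libraries. There, 22.4%, 28.8%, 46.8% and 44% of cells with a Pax7 UMI had a Myf5 UMI, against 20.2%, 21.5%, 31.9% and 36.4% of the rest. The first shares rest on 19 of 85, 30 of 104, 37 of 79 and 11 of 25 cells. All gaps had the same sign, but whether they exceed counting error was not tested.

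Not all 10 genes marked muscle. Outside clusters 11, 12, 13 and 16, Myog was at 48.9, 67.6, 34.9 and 11.5 CPM, or 3.68%, 4.06%, 2.39% and 0.619% of its level inside, and 22.3%, 27.1%, 7.57% and 3.86% of the outside cells had a Myog UMI at median depths of 5875, 6132, 3073 and 4405 UMIs. Acta1, which encodes skeletal actin, was there at 152, 128, 353 and 109. These are the levels against which a muscle gene in other cells has to be read. For Msc the share of its UMIs outside those clusters was 29.6%, 48.4%, 83.6% and 94.3%, so at day 35 it was mainly a gene of other cells. In cluster 6, an unnamed cluster led by Slc6a13, Otos, Ptgds and Apod, Msc was at 25.4, 47.0, 60.3 and 74.8 CPM. In cluster 5 (Ccl5, Cxcl13 and Ifitm1 among its leading genes) Msc was at 24.5, 38.8, 65.0 and 45.2, and in the fibroblast or mesenchyme-like cluster 7 (Agtr2, Dpt, Srpx, Clec3b) at 24.0, 41.4, 19.7 and 31.3. Cluster 6 had 121 Msc UMIs per 100 Myog UMIs, against 3.64 in the muscle clusters, and the median over the 21 clusters outside was 13.9.

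Mef2c was also found in the Schwann or satellite glia-like cluster 17 (Sox10 among its leading genes), at 207, 168, 207 and 180 CPM with 33 to 497 UMIs, and 29.6%, 28.4%, 27.3% and 25.0% of its cells had a UMI at 2000 UMIs per cell. That cluster had 151 Mef2c UMIs per 100 Myog UMIs, against 15.5 in the muscle clusters. The immune-like cluster 24 (Lyz2, Fcer1g, Tyrobp), with 65 of its 68 cells from KO day 25, held Mef2c at 189 CPM, but Myog was at 298 there as well. Of all Mef2c UMIs, 21.1%, 31.4%, 17.8% and 36.6% lay outside the muscle clusters.

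Gm7325 was found in the pluripotent-like cluster 23, where it was at 47.1 CPM (41.5 to 53.2) beside Myog at 5.31, or 886 Gm7325 UMIs per 100 Myog UMIs, against 15.9 in the muscle clusters. Of the 1011 Gm7325 UMIs of KO day 35, 241 (23.8%) lay in the 319 cells of this cluster, and 33.5% of those cells had one. Without them the whole-library ratio of KO over WT at day 35 was -0.97 for Gm7325 in place of -0.79. Its fusion partner Tmem8c had 3 UMIs in the same 319 cells. Pax7, Myf5, Myod1, Myog, Cdh15, Vgll2 and Tmem8c had at most 25% of their UMIs outside the muscle clusters in every library.

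**Figure D5:**
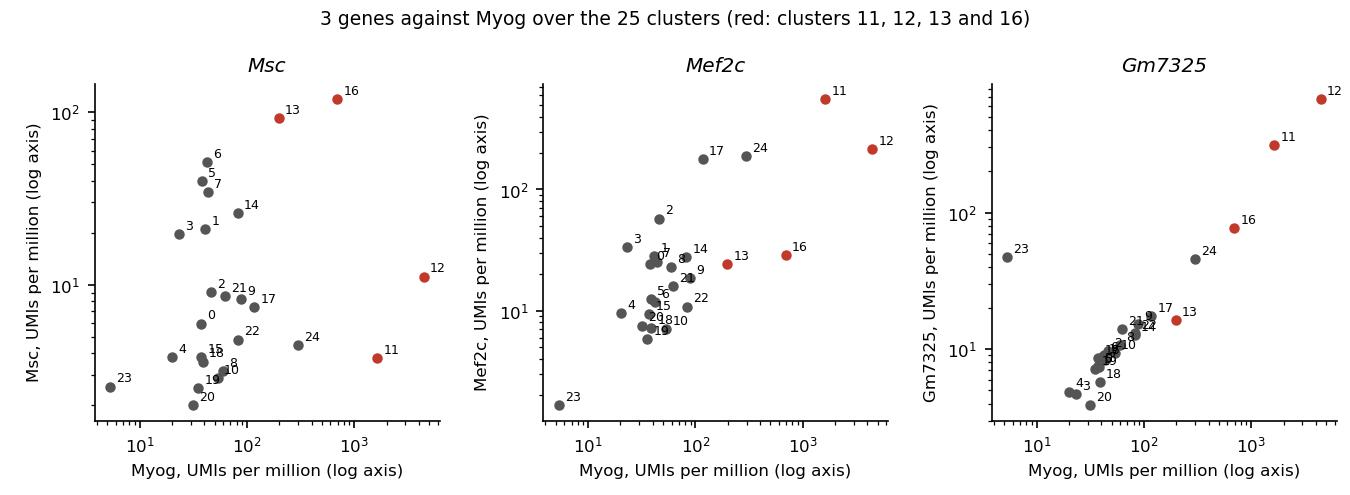
Level of Msc, Mef2c and Gm7325 (y axes) against that of Myog (x axes), both in CPM on log axes, 1 numbered point per cluster over all libraries, with the muscle clusters 11, 12, 13 and 16 in red. Msc stands above the other non-muscle clusters in clusters 6, 5 and 7 (51.2, 39.9 and 34.6), Mef2c in clusters 24 and 17 (189 and 177), and Gm7325 in clusters 23 and 24 (47.1 and 45.6). Myog is lowest in cluster 23 (5.31) and is at 298 in cluster 24.

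For each gene the most similar genes outside the set were found by Pearson correlation of log2(CPM + 10) over the 89 cluster and library sums of at least 20 cells. The points share libraries and depth, and the correlations are descriptions. They also take in the 21 clusters outside muscle, and Fgfr4, Dok7 and Neb, named below, had served as markers to name clusters. Pax7 and Myf5 were both most like Fgfr4 (r = 0.88 and 0.87), which encodes a growth factor receptor of muscle progenitors, and were each other's closest member (0.89). Myod1 (0.96) and Myog (0.95) were most like Ank1. Cdh15 was most like Pitx3 (0.95), a homeobox gene of muscle and lens, and Vgll2 most like Dok7 (0.93), which encodes an adaptor of the neuromuscular junction. Tmem8c was most like Neb (0.97), the gene of the thin filament protein nebulin, and closest among the 10 to Gm7325 (0.95), which itself was most like Gm28653 (0.94). Mef2c, most like Afap1l1 (0.81), and Msc, most like Edn3 (0.76), had the weakest best matches.

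Other genes of the programme were read from 4 lists. Of 32 upstream and cofactor genes, 17 were highest in progenitor-like, 9 in myoblast-like and 6 in myotube-like cells. Id3, an inhibitor of basic helix-loop-helix factors, was at 669, 117 and 83.0 CPM in the 3 stages, and Hes6, a transcriptional regulator of the hairy/enhancer-of-split type, at 70.3, 324 and 222. Of 27 measured fusion and adhesion genes, 8, 7 and 12 were highest in the 3 stages. Cav3, which encodes muscle caveolin, was at 14.6, 177 and 932. A further list was the 19 myotube markers, which held sarcomere genes and others such as Ckm, Atp2a1 and Ryr1. All 19 had also served to name the myotube-like cells and were highest there. Of 9 measured acetylcholine receptor and junction genes 6 were highest in myotube-like cells, as Chrna1 was at 34.0, 292 and 348. Each of the other lists also held genes that had served as markers to name the stages, among them Hes6 and Chrna1. Their stage counts are therefore not independent of the naming.

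At day 35 the whole-library difference between KO and WT seen for the 10 genes held for part of these lists, where 2.88% of all genes were called lower and 9.76% higher. Of the 19 myotube markers 14 were called lower in KO and 0 higher, with a median log2 ratio of -1.58, and of 9 acetylcholine receptor and junction genes 6 were lower and 0 higher, with a median of -1.13. Of the upstream and cofactor genes 5 of 32 were lower and 1 higher (median -0.17), and of the fusion and adhesion genes 3 of 31 were lower and 3 higher (median -0.02). Cd81 (-0.05), Cd9 (-0.10) and Itgb1 (-0.05), membrane proteins made by many cell types, were near 0, while Cav3 was at -1.83. Within skeletal muscle-like cells of day 35, 1 of 19 myotube markers was called higher in KO and 0 lower (median -0.02), and 0 of 9 acetylcholine receptor and junction genes were called (median 0.20). In progenitor-like cells of day 35, however, 8 of 14 measured myotube markers were called lower in KO (median -1.24 against 0.10 over all genes, of which 5.63% were called in either direction), Acta1 being at -1.69 and Tnnc2 at -2.07. Acta1 outside the muscle clusters was at 353 CPM in WT day 35 and 109 in KO day 35, and the part of such background in the progenitor-like values was not tested.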

How the data were processed

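Droplet-based 3' single-cell RNA libraries, 1 per genotype and day, were deposited as whole, not normalized UMI counts (genes by barcodes), which the authors had made. Counting settings were not given in the sources used here. Named with no role or order in the submitters' processing notes are Seurat 2.3.1, Cell Ranger 2.1.0, R 3.5.1 and bcl2fastq. The labels give TrypLE for dissociation, a 40 µm strainer and 10000 target cells. Samples were grouped by the genotype and day in their labels. Gene positions come from GENCODE's GRCm38 annotation and promoters from RefSeq (GRCm38.p6).

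Barcodes entered with at least 500 genes and up to 10% of UMIs from mt- genes. A doublet caller marked 1, 261, 3 and 5 cells, so it had not worked in 3 libraries, and all cells stayed in. Leaving out the 779, 1012, 604 and 381 highest scores was an alternative. Cells of all libraries were clustered together with scanpy 1.11.5 (2000 variable genes, 30 components, 20 neighbours, Leiden resolution 1), without integration and without the 10 genes. A cluster was named where at least 3 fixed markers were among its 50 leading genes and no other set had more among the top 10. Clusters 11, 12, 13 and 16 were clustered again at resolution 0.5 for the stages.

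Counts were summed per library and class and divided by the summed UMIs. Levels have exact Poisson intervals, shares Clopper-Pearson intervals and ratios conditional binomial intervals, all at 95%, and UMIs of 1 cell are not independent samples of a group. A count of 0 entered a ratio as 3 counts. The interval and call rule were tried on simulated independent Poisson counts, the counting model that the interval assumes. Those counts held no spread between cells or replicate libraries, so the trial cannot speak to either. All 10 genes are named. From the other lists up to 4 genes with the most UMIs could be named, and for each of the 10 genes the most alike ones. The members and lists were chosen with earlier results of these data known. Protein sequences were not used here.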

Additional observations from a re-analysis of the deposited data

Results flagged for a closer look

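Between day 25 and day 35 the whole-library level of Myf5 went in opposite directions in the 2 lines, with a log2 ratio of 1.12 in WT (16.8 to 36.6 CPM) and -1.01 in KO (24.2 to 12.1). Each group was 1 library, and the difference between the lines was not tested. Within skeletal muscle-like cells the ratio was above 0 in both lines (Myf5 at 1.36 in WT and 0.89 in KO), but with cells taken by myotube markers in place of clusters it was 0.71 in WT and -0.17 in KO. The share of those cells was 1.19 times as large at day 35 in WT and 0.406 times in KO.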

How the results depend on the processing

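No paired analysis was possible because each group is 1 library, and no replicate could be left out. Of 121 alternative counts and shares, 102 kept their direction and size, 15 moved and 4 reversed, and of 1116 alternative ratios of single genes 871 stayed within the counting interval, 245 moved and 0 of those called changed sign. With at least 1000 genes and at most 5% mitochondrial UMIs, 4 genes were called between KO and WT at day 35 and 7 between days in WT. Both comparisons use WT day 35, whose median mitochondrial share (4.81%) was the highest of the libraries. With cells taken by at least 1% of UMIs in the myotube marker list, the share of KO over WT was 0.882 at day 25 (reversed) and 0.334 at day 35, and that of day 35 over day 25 was 1.33 in WT and 0.505 in KO. Under that rule 1 gene (Pax7, 1.34) was called between KO and WT at day 25 within the class and 3 between days in WT. With each library clustered alone the shares were 0.588 for KO over WT at day 35, 0.833 for the days in WT (reversed) and 0.450 in KO. The share between days in WT was 1.06 at resolution 0.5, 0.910 without cells of high doublet score (reversed, 3 genes called) and 0.983 with the stages and cycling cells as the class (reversed), and in KO it was 0.327 and 0.328 under the last pair. Myotube-like cells held the highest level of 2 genes when UMIs of all libraries were summed or cells of high doublet score left out. Median-ratio scaling shifted log2 ratios by 0.03, -0.23, 0.11 and -0.16 in KO over WT at days 25 and 35 and the days in WT and KO. The alternatives that use the stages or 1 subcluster of the second clustering, the set-aside cells or the pluripotent-like cluster were chosen after seeing the data. The cause of these moves was not tested. Depth limits the rarer genes at day 35, where Vgll2 in KO progenitor-like cells rests on 4 UMIs.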

Other observations

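A finer second clustering (resolution 1) split the myoblast-like and cycling cells further, and the 10 genes were not among the genes clustered on. A myoblast-like subcluster of 821 cells had Acta1 at 472 CPM, Mef2c at 89.4, Tmem8c at 365 and Gm7325 at 492, and another of 380 cells had Acta1 at 3326, Mef2c at 470, Tmem8c at 641 and Gm7325 at 1064. Myog was at 4786 in the first and 4832 in the second of these. In the subcluster of 398 myotube-like cells led by Mybph and Myh3, Mef2c was at 869, Tmem8c at 708 and Gm7325 at 458, and in one of 671 cells led by Cox6a2 and Csrp3 they were at 265, 218 and 122. In the third myotube-like subcluster, of 568 cells led by Sln and Myl1, they were at 589, 529 and 399. Across these 5 subclusters Gm7325 was highest in the 380 myoblast-like cells and Mef2c and Tmem8c in the Mybph and Myh3 cells.

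A cycling subcluster of 214 cells, with Top2a at 403 CPM, had Myog at 3342, Myod1 at 535, Vgll2 at 374 and Gm7325 at 368, while Pax7 was at 12.5 and Myf5 at 13.4. The other 2 cycling subclusters, of 616 and 777 cells with Top2a at 391.7 and 329, had Myog at 179 and 208, Pax7 at 59.9 and 61.4 and Myf5 at 149 and 141. Of the 214 cells 70, 129, 11 and 4 came from WT day 25, KO day 25, WT day 35 and KO day 35, and 2.80% had high doublet scores.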
